A study of Mus musculus with 6 samples.

Results

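Genes of the cell cycle and of DNA replication were examined in E12.5 mouse testes with and without deletion of Ppp1r3c. The 40 genes were chosen by symbol and not by a cut on their values, though with earlier results of these data known. They comprised 8 replication licensing genes, 8 G1 cyclins and cyclin-dependent kinases (CDKs), 6 CDK inhibitors, 6 Rb and E2F factors, 3 marks of DNA synthesis and proliferation, and 9 mitotic cyclins and kinases. All 40 were found among the 24470 genes of the count table. Of these, 39 were among the 15577 genes that passed the filter on low counts, and Cdkn2b did not pass.

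RNA-seq had been performed on testes of 3 control and 3 Ppp1r3c cKO (conditional knockout) samples at stage E12.5 of embryonic development, each a pool of 2 gonadal pairs. Both groups carried the floxed Ppp1r3c alleles (Ppp1r3c f/f), and the cKO embryos also carried a Cre transgene driven by Nr5a1 (Sf1) sequences. Both mouse lines were kept on a C57BL/6 background. Gonadal somatic cells, among them the progenitors of Sertoli cells, express Nr5a1, whereas germ cells of these testes are not a target of this Cre. The Ppp1r3c protein directs protein phosphatase 1 to glycogen and favours glycogen synthesis. The p-values measure the spread between pools of embryos, and whether the pools of a group shared a litter was not stated.

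In the G1 phase, D-type cyclins with CDK4 or CDK6 and E-type cyclins with CDK2 phosphorylate the Rb family proteins, which releases E2F factors to activate genes of DNA replication. CDK inhibitors restrain these kinases, while replication licensing loads the MCM helicase onto origins before S phase, and mitotic cyclins, CDK1, Aurora and Polo-like kinases then drive the cell through mitosis. At E12.5 Sertoli cells and other somatic cells of the testis proliferate, and germ cells are still cycling before their mitotic arrest as prospermatogonia.

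Many of these genes are known to be read in common waves, through E2F sites in the promoters of G1/S genes and through a CHR element (cell cycle genes homology region) with CCAAT boxes in the promoters of mitotic genes. Promoter windows from RefSeq, on the build GRCm38.p6 (the build of the count table, also named mm10), covered 250 bases before to 50 bases after the start of transcription for 33 of the 40 genes. They were searched on both strands for an E2F site (TTTCCCGC, TTTCGCGC, TTTGCCGC or TTTGGCGC), a CHR (TTTGAA or TTCGAA) and a CCAAT box (CCAAT). The promoters of 3 licensing genes and 3 mitotic genes are shown, because their lists had the lowest median log2 fold changes. The genes shown do not stand for every gene of their list, since the window of Mcm2 held no E2F site and that of Ccnb1 no CHR. The 2 lists differed in how many windows held an E2F site or a CHR, but the motifs did not fully separate them. Each stretch is 180 bases long and ends just before the RefSeq start. Capitals mark the letters of any of these motifs, a CCAAT box on the other strand reads ATTGG, and a run of capitals longer than 8 letters is a pair of overlapping E2F sites on opposite strands.
Mcm5 (chr8:75109329-75109508, plus strand): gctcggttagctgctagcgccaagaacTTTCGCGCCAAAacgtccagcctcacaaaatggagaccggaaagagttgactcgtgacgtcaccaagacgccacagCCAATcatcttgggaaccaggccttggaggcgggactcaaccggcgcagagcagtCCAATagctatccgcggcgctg
Mcm6 (chr1:128359706-128359885, minus strand): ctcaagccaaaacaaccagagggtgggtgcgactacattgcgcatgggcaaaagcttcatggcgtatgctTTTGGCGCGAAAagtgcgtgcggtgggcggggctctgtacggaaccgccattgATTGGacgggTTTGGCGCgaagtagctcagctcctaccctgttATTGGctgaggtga
Mcm7 (chr5:138171884-138172063, minus strand): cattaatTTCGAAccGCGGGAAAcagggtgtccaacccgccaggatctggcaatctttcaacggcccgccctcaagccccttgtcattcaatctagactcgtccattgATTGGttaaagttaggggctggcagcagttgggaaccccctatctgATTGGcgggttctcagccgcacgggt
Ccnb2 (chr9:70421555-70421734, minus strand): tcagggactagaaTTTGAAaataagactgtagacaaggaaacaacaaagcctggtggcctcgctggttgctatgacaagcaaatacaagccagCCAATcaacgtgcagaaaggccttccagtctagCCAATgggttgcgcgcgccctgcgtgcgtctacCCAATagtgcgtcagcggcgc
Cdc20 (chr4:118437344-118437523, minus strand): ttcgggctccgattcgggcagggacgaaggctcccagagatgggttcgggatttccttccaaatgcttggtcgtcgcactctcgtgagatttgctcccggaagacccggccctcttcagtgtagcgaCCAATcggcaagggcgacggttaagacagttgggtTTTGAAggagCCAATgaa
Cdk1 (chr10:69352913-69353092, minus strand): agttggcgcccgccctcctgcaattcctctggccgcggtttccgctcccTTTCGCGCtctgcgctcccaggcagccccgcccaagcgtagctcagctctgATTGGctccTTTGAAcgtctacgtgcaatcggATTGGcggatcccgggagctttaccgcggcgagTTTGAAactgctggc

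E2F sites spanned -153 to -142 in Mcm5 and, in Mcm6, -110 to -99 and -47 to -40, counted in bases from the start of transcription. In Cdc20 the CHR spanned -18 to -13 and was followed by a CCAAT box from -8 to -4. Cdk1 held both kinds of element, an E2F site from -131 to -124 and a CHR from -71 to -66 and again from -15 to -10. An E2F site was present in 12 of the 33 windows (36.4%), including 6 of 7 licensing genes and 1 of 7 mitotic genes, against 744 of 32851 windows of all promoters (2.26%). A CHR was present in 13 of 33 (39.4%, against 19.2% of all promoters) and a CCAAT box in 20 of 33 (60.6%, against 37.4%). Both a CHR and a CCAAT box were present in 11 of 33 (33.3%, against 7.52%). Of 7 mitotic genes, 6 had a CHR and 7 a CCAAT box. Of 7 licensing genes, 2 had a CHR, Mcm7 among them, and 5 a CCAAT box. These are matches of letters and not shown sites. The windows of Mcm4, Ccnd1, Ccnd2, Ccne2, Rb1, Ccna2 and Aurkb were not analysed here. For 7 genes with more than 1 window, only the window whose start lay nearest the upstream end of the gene was counted.

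Levels are given as CPM, read counts divided by the TMM-normalised size of the library and brought to the same total in each sample. Library totals lay between 16139487 and 44145158 counts, and control replicate 1 was the shallowest. Ppp1r3c itself fell in cKO testes (edgeR FDR 0.000126, log2 fold change -2.11 with an SE of 0.111) and was lower in every cKO sample. The library of cKO replicate 3 stood apart. It held 12534 counts of Xist, the RNA of the inactive X chromosome of XX cells, against 6 to 41 in the other libraries, and 50.9 CPM of the pre-granulosa gene Fst against at most 2.02 CPM. Values that rest on this library are therefore also given without it. Sertoli cell markers were present in every sample, Sox9 at 155 to 213 CPM and Amh at 588 to 920 CPM. In these bulk samples, fewer cells of a type and less RNA per cell cannot be told apart.

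None of the 39 tested genes of the list was called with all 6 samples. Few genes were called in the whole table, so this does not set the list apart. edgeR called 0 of the 39 tested genes at an FDR (Benjamini-Hochberg adjusted p over all tested genes) below 0.05, where it called 6 of 15577 genes in all (0.0385%), 5 higher (0.0321%) and 1 lower (0.00642%). DESeq2 also called 0 of 39, beside 111 of 14243 genes (0.779%). At an unadjusted edgeR p under 0.05 there was 1 gene higher in cKO testes (Ccnd2; 2.56% of the 39, against 5.56% of all genes) and 5 lower (Mcm5, Mcm7, E2f1, Ccna2 and Bub1; 12.8%, against 5.8%). The 2 genes of lowest FDR were Ccnd2 and E2f1, both at 0.377. Single samples moved the number of lower genes: leaving out control replicate 1 gave 9 of them (7.76% of all genes), leaving out cKO replicate 1 or 3 gave 8 and 3 (7.86% and 4.29%), and leaving out control replicate 2 or cKO replicate 2 gave 1 each (3.27% and 3.59%). With the replicate number as a block there was also 1 (3.19%).

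The differences were small as well as uncalled. Log2 fold changes of the 39 genes ran from -0.21 to 0.37 with a median of -0.056, beside -0.0034 over all tested genes, and 28 of 39 were negative (71.8%, against 50.9% of all genes). The 95% interval of the log2 fold change lay within 0.5 of 0 on either side for 35 of 39 genes. The exceptions were the CDK inhibitors Cdkn1a, Cdkn1b, Cdkn2a and Cdkn2c. The coefficient of variation among the 3 control samples had a median of 7.79% over the 39 genes, close to the 8.08% over all tested genes. For 1 gene, Ccnd2, all cKO samples lay above all control samples (2.56%, against 8.42% of all genes), and for 4 genes (Mcm5, E2f1, Ccna2 and Ccnb2) they all lay below (10.3%, against 7.17%). With 1 sample fewer, this share grew over all genes as well. The 5 genes became 15 with control replicate 1 left out (2 higher and 13 lower, against 15.9% and 17.3% of all genes) and 12 with control replicate 3 left out (1 and 11, against 13.5% and 13%). Leaving out cKO replicate 1 gave 13 (2 and 11, against 15.2% and 15.6%), and cKO replicate 3 gave 9 (1 and 8, against 11.9% and 10.9%). Without cKO replicate 2 there were 8, of which 4 were higher and 4 lower. Each of these directions held 10.3% of the 39, below its share of all genes (10.7% for the lower direction).

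**Figure D1:**
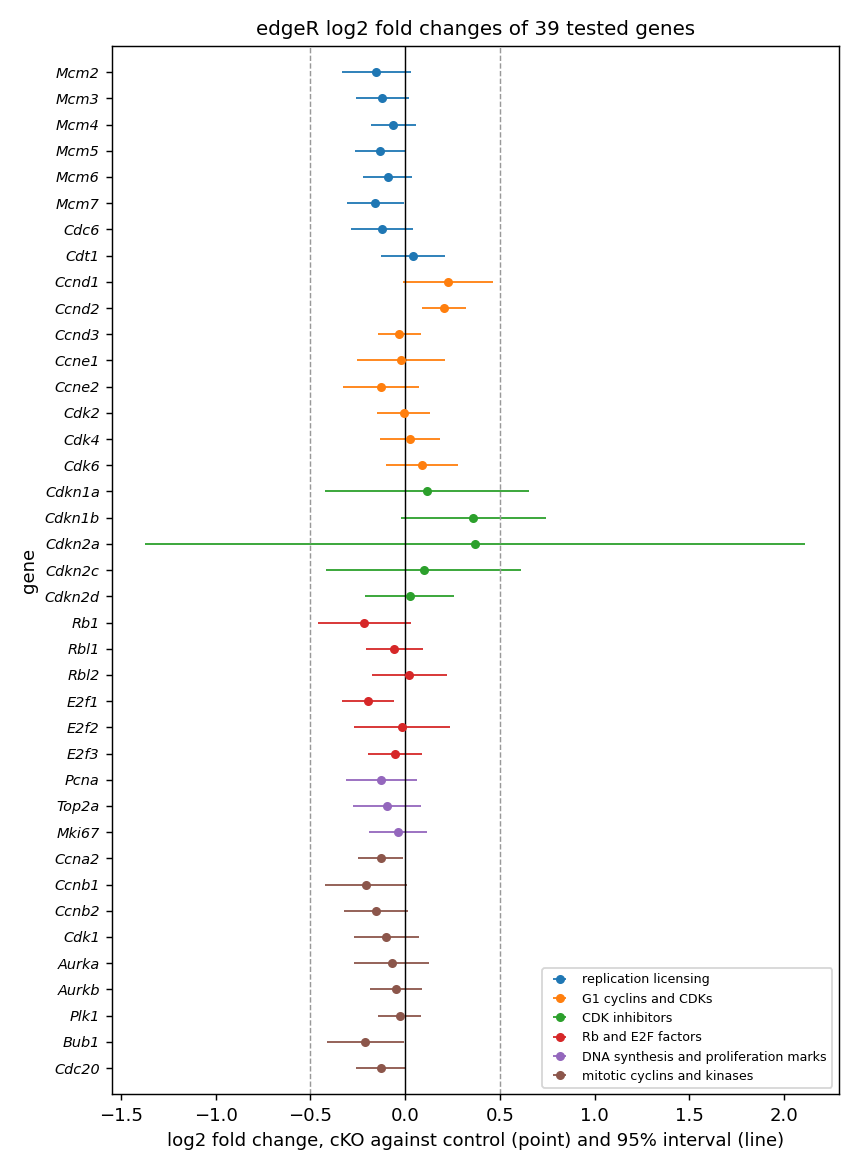
edgeR log2 fold changes of cKO against control testes (horizontal axis) for the 39 tested genes (vertical axis), with points for the estimate, lines for the 95% interval and colours for the 6 role groups. Dashed lines stand at -0.5 and 0.5, and the intervals of all but 4 CDK inhibitor genes lie between them.

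Per length of exon the genes spanned a wide range of levels. Cdk4, the kinase partner of the D-type cyclins, was the highest with 255 ± 19.9 CPM per kilobase of exon (SD, n = 3) in control testes. Top2a and Mcm7 were at 142 ± 14.2 and 103 ± 6.08, and Pcna lay between them with 123 to 151 in the control samples, overlapping Top2a. Among the D-type cyclins, Ccnd3 (86.7 ± 0.992) was above Ccnd2 (42.7 ± 1.87) and Ccnd1 (24.8 ± 2.75). The order of Ccnd3 and Ccnd2 rests on the exon lengths used, 2.45 and 6.71 kilobases. In CPM, Ccnd2 (286 ± 12.6) was above Ccnd3 (212 ± 2.43) in control testes. The spread between samples does not measure an error in these lengths. The 6 genes of the MCM helicase, which work as 1 hexamer, lay within a narrow band from 69.9 (Mcm5) to 103 (Mcm7). Cdk6 (3.51 ± 0.294) was far below Cdk4, and the lowest genes were the inhibitors Cdkn2a (1.92 ± 0.638), Cdkn2c (1.43 ± 0.159) and Cdkn2b (0.150 ± 0.155).

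**Figure D2:**
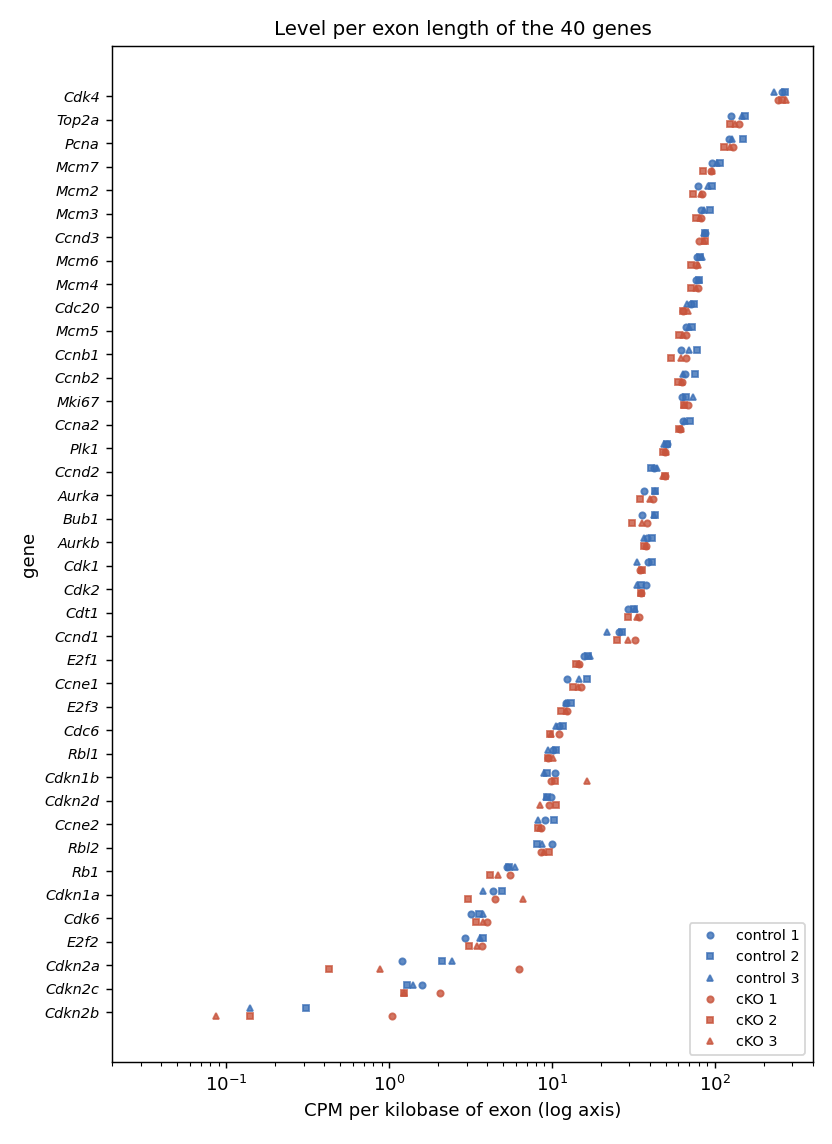
CPM per kilobase of exon (horizontal log axis) of all 40 genes (vertical axis, ordered by the control mean), with a symbol for each of the 3 control (blue) and 3 cKO (red) samples. Levels reach from 0.150 for Cdkn2b to 255 for Cdk4 in the control mean, and the single control sample of Cdkn2b with 0 counts is not drawn.

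The replication licensing genes prepare origins for S phase. Mcm7, a subunit of the MCM helicase on chromosome 5 (138164589 to 138171862, minus strand), had 285, 320 and 308 CPM in control replicates 1 to 3 and 281, 252 and 285 CPM in cKO replicates 1 to 3. The groups met at control replicate 1 and cKO replicate 3, and cKO replicate 2 was the lowest of the 6. This gave a log2 fold change of -0.16, with an SE of 0.067 and an edgeR FDR of 0.420, a difference of the means of -10.4%.

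Mcm5, another MCM subunit (chromosome 8, 75109509 to 75128439, plus strand), had 232, 251 and 242 CPM in control and 232, 208 and 222 CPM in cKO testes. Its groups did not overlap, but cKO replicate 1 lay just under control replicate 1. On the log2 scale the change was -0.13 (SE 0.058), at an edgeR FDR of 0.439.

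The rest of the licensing list moved within the same limits. Its log2 fold changes had a median of -0.12, with 7 negative and 1 positive, and the lowest FDR was 0.420. Mcm2 was 300 ± 29.7 CPM in control and 271 ± 19.8 CPM in cKO (SD, n = 3 each), and Mcm6, the MCM gene with the highest CPM, was 354 ± 13.7 and 332 ± 17.5 CPM. Cdc6, which loads the helicase together with Cdt1, was at 53.3 ± 2.84 and 48.9 ± 3.27 CPM, while Cdt1 was the 1 positive value (68.7 ± 3.41 and 70.7 ± 5.67 CPM, log2 fold change 0.040). Mcm3 and Mcm4 had log2 fold changes of -0.12 and -0.062.

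The G1 cyclins and CDKs held the gene of lowest p. Ccnd2 encodes cyclin D2, a D-type cyclin known for its role in the proliferation of gonadal somatic cells, and lies on chromosome 6 (127125708 to 127151048, minus strand). It was at 286, 274 and 299 CPM in control and 331, 335 and 324 CPM in cKO testes. Every cKO sample lay above every control sample, including cKO replicate 3. The means were 286 ± 12.6 and 330 ± 5.37 CPM (SD, n = 3 each), a difference of 15.2%, with a log2 fold change of 0.20 (SE 0.052, 95% interval 0.09 to 0.32, edgeR FDR 0.377, DESeq2 FDR 0.0688). A two-sided exact permutation test gave p = 0.1, its minimum for groups of 3. Without cKO replicate 3 the log2 fold change was 0.22, and DESeq2 called the gene when control replicate 3 was left out (FDR 0.00752), where its filter gave an adjusted p to 15 of the 39 genes.

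Ccnd1, which encodes cyclin D1 (chromosome 7, 144929931 to 144939925, minus strand), was at 97.1, 100 and 81.2 CPM in control and 121, 94.2 and 110 CPM in cKO testes. The groups overlapped through cKO replicate 2. edgeR gave a log2 fold change of 0.23 with an SE of 0.11 and an FDR of 0.450. The third D-type cyclin gene, Ccnd3, had the opposite sign (212 ± 2.43 and 208 ± 9.02 CPM, log2 fold change -0.031, 95% interval -0.15 to 0.08).

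The other genes of the G1 list gave no difference beyond their spread. The list had 4 positive and 4 negative log2 fold changes with a median of 0.0098. The cyclin E genes Ccne1 and Ccne2, partners of CDK2 at the entry into S phase, had 29.1 ± 4.20 and 28.8 ± 1.56 CPM (Ccne1) and 29.6 ± 3.37 and 27.1 ± 0.620 CPM (Ccne2) in control and cKO testes. Cdk2 was at 85.9 ± 5.62 and 85.4 ± 0.373 CPM, with a 95% interval of its log2 fold change from -0.15 to 0.13. For Cdk4 the values were 524 ± 40.9 and 534 ± 31.6 CPM (interval -0.13 to 0.19), and for Cdk6 40.5 ± 3.39 and 43.2 ± 3.47 CPM (-0.10 to 0.28).

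The CDK inhibitors varied most between samples. All 5 tested genes had positive log2 fold changes (median 0.11), none passed the test (lowest FDR 0.454), and the large values came from single samples. Cdkn1b, an inhibitor of the Cip/Kip family on chromosome 6 (134920401 to 134925525, plus strand), was at 47.5, 42.5 and 41.0 CPM in control and 45.2, 47.8 and 74.6 CPM in cKO testes. Only cKO replicate 3 stood above the rest, the other cKO samples lying within or just above the control range. Its log2 fold change of 0.36 (SE 0.17, edgeR FDR 0.454) shrank to 0.097 without cKO replicate 3. Cdkn1a, of the same family and a target of p53, was at 11.8, 13.5 and 10.3 CPM in control and 12.2, 8.31 and 18.0 CPM in cKO testes. Its highest value was again in cKO replicate 3 and its lowest in cKO replicate 2. Its log2 fold change turned from 0.11 to -0.20 without cKO replicate 3.

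Cdkn1c, the third gene of the Cip/Kip family, was not among the 40 genes and is named here after its values were seen. It was at 200, 168 and 174 CPM in control and 207, 226 and 383 CPM in cKO testes (log2 fold change 0.59, SE 0.200, edgeR FDR 0.377, DESeq2 FDR 0.459). All cKO samples lay above all controls, with cKO replicate 3 far above the rest, and without this library the log2 fold change was 0.26. The 8 pre-granulosa markers summed to 346 CPM in cKO replicate 3 and to 136 to 158 CPM in the other samples, and none of them was at 0 in any sample. Their part in the values of Cdkn1a, Cdkn1b and Cdkn1c was not tested.

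The Ink4 genes were low and uneven. Cdkn2a (chromosome 4, 89274473 to 89294619, minus strand) encodes the Ink4a inhibitor of CDK4 and CDK6 and, from another start 12.4 kb away, the Arf protein that stabilises p53, and the counts of both share 1 row of the table. It had 23, 110 and 117 counts in control and 296, 18 and 34 counts in cKO testes, that is 1.42, 2.49 and 2.85 CPM and 7.38, 0.501 and 1.03 CPM. Here cKO replicate 1 was the highest of all samples and the other cKO samples were the lowest. The log2 fold change of 0.37 (SE 0.77, edgeR FDR 0.886) therefore had no stable sign. Without cKO replicate 1 it was -1.61 by edgeR (FDR 0.173) and -1.59 by DESeq2 (FDR 0.0379), an alternative chosen after seeing the data.

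Cdkn2b, which encodes a related inhibitor and lies 11.7 kb from Cdkn2a, had 0, 19 and 8 counts in control and 58, 7 and 4 counts in cKO testes, and was too low to be tested. The 0 in control replicate 1 allows a level of up to 0.185 CPM (3 counts). It was again highest in cKO replicate 1. The same sample was also the highest for Cdkn2c (4.31, 3.46 and 3.78 CPM in control; 5.56, 3.34 and 3.33 CPM in cKO). Only Cdkn2d of the Ink4 family was even, at 14.0 ± 0.554 and 14.2 ± 1.59 CPM (95% interval of the log2 fold change -0.21 to 0.26). The 6 mesonephros markers, listed because the adjoining mesonephros can be carried along at dissection, summed to 32.1 CPM in cKO replicate 1, within the range of 25.1 to 32.2 CPM in control, and to 23.9 and 44.0 CPM in cKO replicates 2 and 3, with Cdh16 at 0 in 3 of the 6 samples. As a mean log2 difference from the control mean, the 5 tested markers were at -0.094, 0.23 and -0.14 in control. In cKO replicates 1 to 3 they were at 0.45, 0.0054 and 0.997, so by this measure cKO replicate 1 lay above every control. The part of other tissue in the Ink4 values was not tested.

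**Figure D3:**
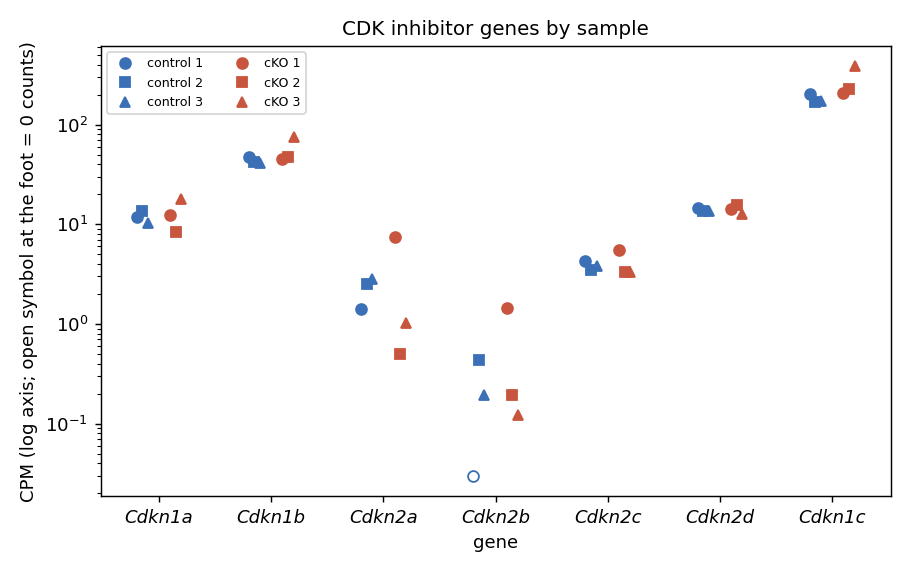
CPM (vertical log axis) of the 6 CDK inhibitor genes and of Cdkn1c (horizontal axis) in each of the 3 control (blue) and 3 cKO (red) samples, with an open symbol at the foot for 0 counts. Cdkn2a, Cdkn2b and Cdkn2c are highest in cKO replicate 1, and Cdkn1a, Cdkn1b and Cdkn1c are highest in cKO replicate 3.

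The Rb and E2F factors link the CDKs to transcription. E2f1, an activating E2F factor on chromosome 2 (154559400 to 154569892, minus strand), was at 50.1, 52.7 and 54.3 CPM in control and 46.3, 44.7 and 46.4 CPM in cKO testes. The groups did not overlap and the spread in each was small. On the log2 scale E2f1 changed by -0.19 (SE 0.061, 95% interval -0.33 to -0.06, edgeR FDR 0.377, DESeq2 FDR 0.258), with an exact permutation p of 0.1.

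Rb1, the retinoblastoma gene (chromosome 14, 73195502 to 73325791, minus strand), was at 24.6, 25.5 and 27.7 CPM in control and 26.0, 19.4 and 21.8 CPM in cKO testes. One cKO sample, replicate 1, lay among the controls. Its log2 fold change, -0.21 (SE 0.11, edgeR FDR 0.478), was the most negative of the 39 genes.

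The relatives of both genes differed less. The pocket protein genes Rbl1 and Rbl2, whose products repress cell cycle genes with the repressive E2F factors, had log2 fold changes of -0.056 and 0.022. The activators E2f2 and E2f3 had -0.016 and -0.054, and E2f2 was at 16.3 ± 2.11 and 16.3 ± 1.40 CPM. The list had a median of -0.055 with 5 of 6 values negative.

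Among the marks of DNA synthesis and proliferation, Pcna, the sliding clamp of the replicative polymerases (chromosome 2, 132249286 to 132253180, minus strand), was at 186, 229 and 193 CPM in control and 197, 173 and 188 CPM in cKO testes. The groups overlapped, with control replicate 2 alone above the rest. edgeR gave a log2 fold change of -0.13 and an FDR of 0.586 (SE 0.083). Top2a, the topoisomerase that untangles chromosomes in dividing cells (chromosome 11, 98992947 to 99024189, minus strand), was at 660, 800 and 773 CPM in control and 734, 652 and 702 CPM in cKO testes. Its groups also overlapped, since the shallow control replicate 1 lay with the cKO samples (log2 fold change -0.096, SE 0.079, edgeR FDR 0.665). Mki67, which encodes the proliferation antigen Ki-67, was at 684 ± 56.7 and 667 ± 24.5 CPM with a 95% interval of the log2 fold change from -0.19 to 0.12.

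The mitotic cyclins and kinases had negative log2 fold changes for all 9 genes, with a median of -0.13 and a lowest FDR of 0.413. Ccna2, the cyclin A gene of S phase and early mitosis (chromosome 3, 36564865 to 36571996, minus strand), was at 232, 256 and 240 CPM in control and 222, 218 and 225 CPM in cKO testes. The groups did not overlap (log2 fold change -0.13, SE 0.053, edgeR FDR 0.413). Bub1, a kinase of the spindle assembly checkpoint (chromosome 2, 127800200 to 127831859, minus strand), was at 124, 147 and 146 CPM in control and 131, 107 and 123 CPM in cKO testes. Its groups overlapped through control replicate 1 and cKO replicate 1. The change of -0.21 on the log2 scale (SE 0.090) had an edgeR FDR of 0.431.

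The cyclin B genes Ccnb1 and Ccnb2, partners of CDK1 at the entry into mitosis, were at 174 ± 20.2 and 151 ± 15.8 CPM and at 105 ± 10.4 and 94.7 ± 3.41 CPM. Ccnb2 did not overlap between groups, with 98.1 CPM in the lowest control and 96.9 CPM in the highest cKO sample. Cdk1 itself was at 169 ± 18.7 and 158 ± 2.29 CPM. The activator of the anaphase-promoting complex, Cdc20, was at 128 ± 6.32 and 117 ± 5.34 CPM (log2 fold change -0.13). The kinase genes Aurka, Aurkb and Plk1, which act at spindle poles, centromeres and several mitotic steps, had log2 fold changes of -0.072, -0.048 and -0.029.

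Grouped by promoter motif, genes with a CCAAT box had a median log2 fold change of -0.098 and those without one 0.024. With and without a CHR the medians were -0.098 and -0.019, and with and without an E2F site -0.074 and -0.033. These splits follow the role groups in part and are given without a test.

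**Figure D4:**
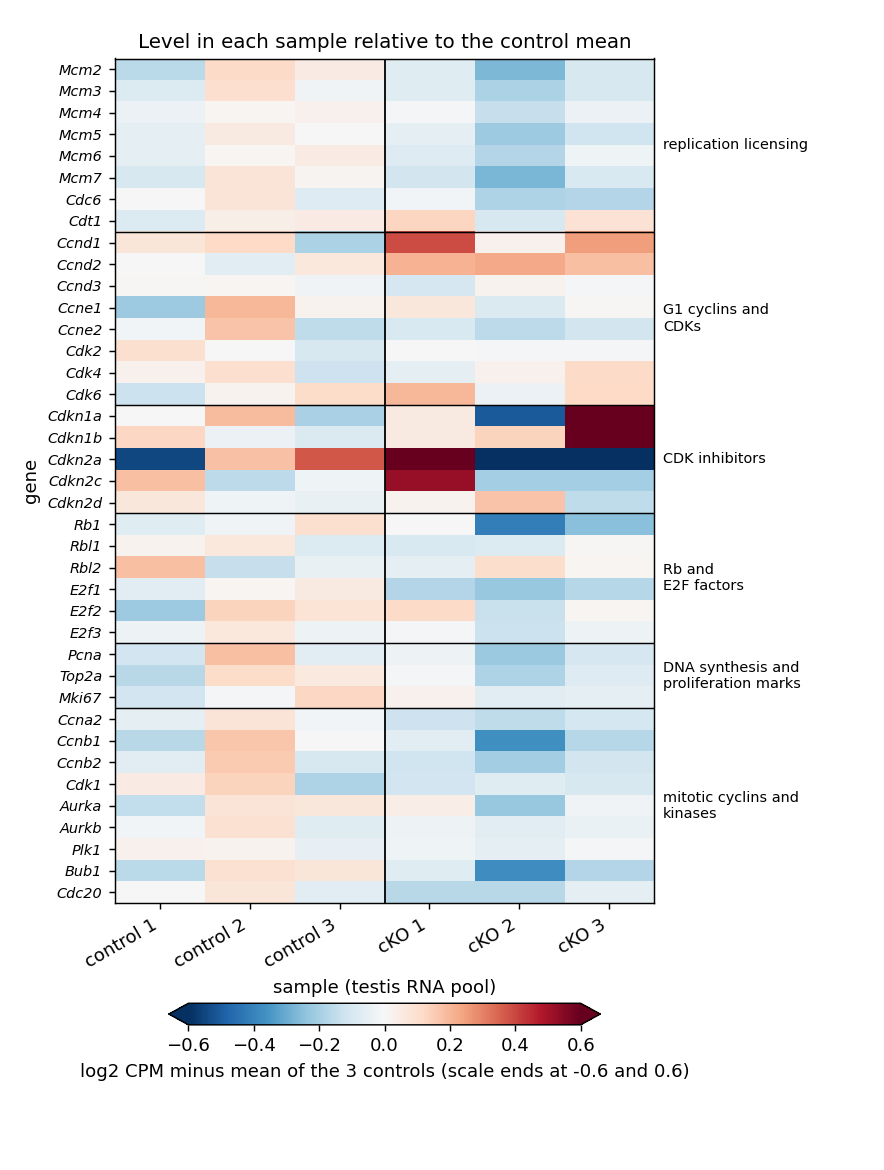
Log2 CPM of 39 genes (vertical axis, in 6 role groups) in each of the 6 samples (horizontal axis), as the difference from the mean of the 3 controls, with blue for lower, red for higher and the colour scale ending at -0.6 and 0.6. The column of cKO replicate 2 is the bluest, with the lowest value of 23 genes. Cdkn2a and Cdkn2c in cKO replicate 1 and Cdkn1a and Cdkn1b in cKO replicate 3 are the darkest red.

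The small negative values were not spread evenly over the samples. Of the 39 genes, 23 had their lowest value in cKO replicate 2, where 23.7% of all tested genes did, and 20 had their highest value in control replicate 2, against 18.4% of all genes. The mean level of the list, as the log2 difference from the control mean, was -0.052, 0.063 and -0.011 in control and 0.046, -0.18 and -0.038 in cKO replicates 1 to 3. The groups overlapped, with cKO replicate 2 the lowest. Cdkn2a alone was 1.73 above the control mean in cKO replicate 1, and without this gene the cKO values were 0.0013, -0.13 and -0.012 and the control values -0.039, 0.060 and -0.021. In the mitotic list the groups did not overlap, with -0.060, 0.099 and -0.038 in control and -0.075, -0.19 and -0.087 in cKO testes. Nor did they in the Rb and E2F list, with -0.030, 0.018 and 0.012 in control and -0.037, -0.15 and -0.070 in cKO testes. In both lists control replicate 1 and cKO replicate 1 lay close together, and in the other role lists the groups overlapped. For the 39 genes, leaving out cKO replicate 2 gave a median log2 fold change of -0.042, and leaving out cKO replicate 3 one of -0.088.

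Markers of germ cells, which Nr5a1-Cre does not target, differed more between samples. The 18 germ cell markers summed to 703, 1083 and 1117 CPM in control and 729, 365 and 564 CPM in cKO replicates 1 to 3, and only Nanos2 reached 0, in cKO replicate 3. All 17 tested markers had negative log2 fold changes (median -0.80), 16 at an unadjusted edgeR p under 0.05 and 0 at an FDR below 0.05, while DESeq2 called 2 of them. The lowest sample, cKO replicate 2, was the same for the germ cell list and the 39 genes. The mean level of the 113 further genes described last was -0.049, 0.053 and -0.0034 in control and -0.039, -0.16 and -0.079 in cKO replicates 1 to 3, the same order of samples as for the germ cell markers except that control replicates 2 and 3 changed places. The 39 genes were in another order, with or without Cdkn2a. In them control replicate 3 lay below cKO replicate 1, and control replicate 1 below cKO replicate 3. The part of the germ cell share in the cell cycle values was not tested.

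**Figure D5:**
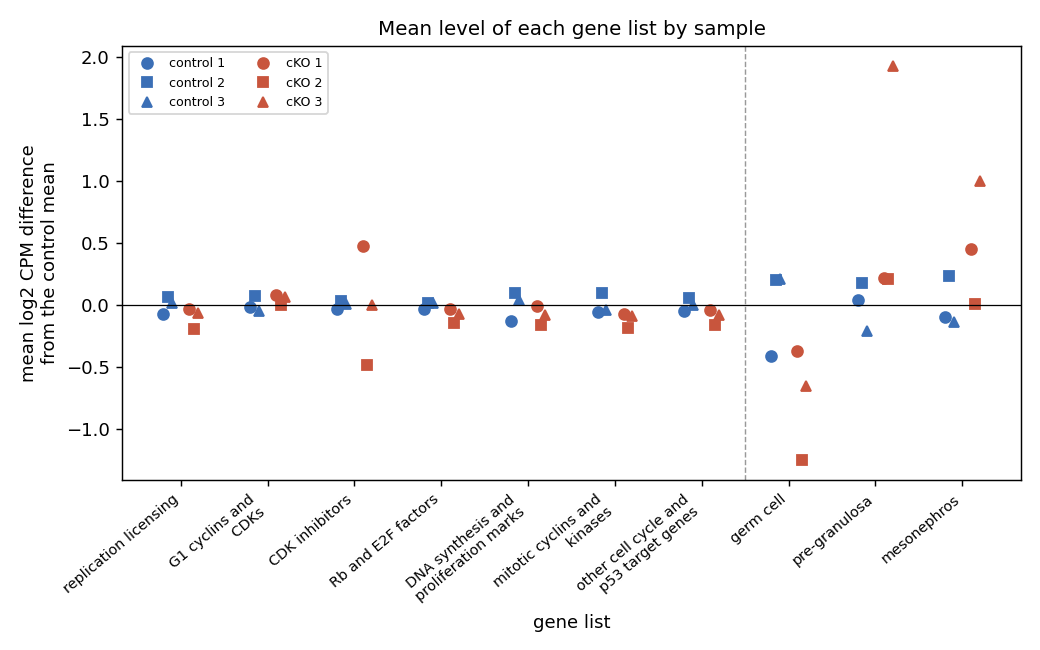
Mean log2 CPM difference from the control mean (vertical axis) for each of the 6 role groups, the 113 other cell cycle and p53 target genes and 3 lists of cell type markers (horizontal axis, right of the dashed line), with a symbol for each of the 3 control (blue) and 3 cKO (red) samples. The replication and mitotic lists stay within 0.2 of the control mean, whereas germ cell markers reach -1.25 in cKO replicate 2 and pre-granulosa markers 1.93 in cKO replicate 3.

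A further 113 genes were examined in 6 lists, 5 of cell cycle and replication genes and 1 of 14 target genes of p53, and all were tested. edgeR called 0 of them, with 2 higher and 26 lower at an unadjusted p under 0.05 (1.77% and 23.0%, against 5.56% and 5.8% of all genes). Of the 26 lower genes, 3 were p53 targets. This count became 42 when control replicate 1 was left out (7.76% of all genes were then lower), and 15 when control replicate 2 or cKO replicate 2 was left out (3.27% and 3.59%). The median log2 fold change was -0.11, and 88 of 113 were negative (77.9%, against 50.9% of all genes). DESeq2 called 4 of the 113, all lower in cKO testes, beside 111 of 14243 genes in all (0.779%). The 4 were the cell cycle and replication genes Rpa2, Mybl2 and Cks2 and the p53 target Bax.

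Rpa2, a subunit of the protein that coats single-stranded DNA at forks, was at 89.9, 108 and 100 CPM in control and 82.2, 68.3 and 80.3 CPM in cKO testes (log2 fold change -0.37, edgeR FDR 0.377, DESeq2 FDR 0.0187). Mybl2, which encodes the B-Myb activator of mitotic genes, was at 67.4, 86.3 and 87.9 CPM against 68.7, 45.6 and 59.8 CPM (-0.48, DESeq2 FDR 0.0473). In Mybl2 the groups overlapped through control replicate 1 and cKO replicate 1, whereas in Rpa2 they did not. Cks2, a small CDK-binding protein, was at 70.4, 81.5 and 74 CPM against 63.4, 54.8 and 62.5 CPM (-0.32, DESeq2 FDR 0.0429). Bax, a pro-apoptotic target of p53, was at 52.4, 58.5 and 54.7 CPM against 43.5, 42.3 and 45.1 CPM (-0.34, DESeq2 FDR 0.00922). The groups overlapped in neither Cks2 nor Bax. The edgeR FDR of each of these 4 genes was 0.377. Leaving out control replicate 1 or cKO replicate 1 kept the DESeq2 call of all 4, and leaving out control replicate 2 or cKO replicate 2 or 3 gave none of them a call. With control replicate 3 left out, the filter of DESeq2 gave these 4 genes no adjusted p.

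The genes of lowest p in the lists of licensing and origin firing and of mitosis were Cdc45, a part of the replicative helicase, and Cenpa, the centromeric histone. Cdc45 was at 50.6, 54.8 and 50.8 CPM in control and 46.0, 40.5 and 42.2 CPM in cKO testes, and Cenpa was at 102, 107 and 98.4 CPM and 93.5, 82.2 and 89.4 CPM. Neither overlapped between groups, and neither was called by edgeR or by DESeq2 with all samples (log2 fold changes -0.28 and -0.21, DESeq2 FDR 0.0856 and 0.171). DESeq2 called Cdc45 when cKO replicate 1 was left out (log2 fold change -0.33, FDR 0.0240). The 6 lists had median log2 fold changes from -0.14 for mitotic genes to -0.030 for p53 targets.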

How the data were processed

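RNA-seq libraries of 3 control and 3 Ppp1r3c cKO samples were analysed, grouped by genotype label. The authors deposited unnormalised read counts per gene from stranded mRNA libraries. Per the submitters' processing notes, reads were aligned with STAR 2.5 to mm10 and counted with featureCounts (Subread 1.5.0-p1), on RefSeq Curated gene models and in a strand-specific mode. The table also held 2 rows with a repeated symbol, and 0 columns of per-sample values were left unused.

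The counts were tested with edgeR 4.0.16 in R 4.3.3 (filterByExpr with a minimum count of 10, TMM, quasi-likelihood F-test on all 6 samples without covariates, Benjamini-Hochberg adjustment over 15577 genes, threshold 0.05). The SE was derived from the F statistic, and log2 CPM used a prior count of 2. Exon lengths came from merged exons of a GENCODE annotation of GRCm38. The scripts were tested on simulated data. Alternatives were DESeq2 1.42.0, which the authors also used, limma-voom (limma 3.58.1), size factors by RLE, no filter, a stricter filter (3 or more samples with 1 CPM or more), a block for the replicate number, libraries thinned to the smallest total, and leaving out each sample. DESeq2 without each sample was chosen after seeing the data.

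The 40 genes, the other lists and the tests were chosen with earlier results of these data known. Values in every sample were given for the 2 genes of lowest p in each of 6 role groups, for called genes and for the gene of lowest p in each other list. Other genes were summarised. The gene rows of closely related family members can share reads.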

Additional observations from a re-analysis of the deposited data

How the results depend on the processing

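In the other settings with all 6 samples (thinned libraries, the replicate block, both other filters, RLE size factors, limma-voom and DESeq2), no cell cycle or replication gene of the 39 was called. The median log2 fold change of the 39 genes lay between -0.064 and -0.053 under these settings and between -0.090 and -0.039 in edgeR and -0.087 and -0.029 in DESeq2 when single samples were left out. The number of all genes called was 111 by DESeq2, 3 with thinned libraries and 2 to 8 without single samples. DESeq2 called 313, 52 and 48 genes without control replicates 1, 2 and 3 and 300, 82 and 14 without the cKO replicates, among them 1 of the 39 without control replicate 3 (Ccnd2, log2 fold change 0.24, FDR 0.00752) and 1 without cKO replicate 1 (Cdkn2a). Of the 113 other genes (14 of them p53 targets) DESeq2 called 4, beside 111 in all. It called 9 of them when control replicate 1 or cKO replicate 1 was left out, beside 313 and 300 in all. The count of genes whose groups did not overlap was 5 with all samples and 5 to 15 without single samples, which also raises this count over all genes. It was 15 without control replicate 1, where 2 of the genes were higher (15.9% of all genes) and 13 lower (17.3%). At an unadjusted edgeR p under 0.05 the count of lower genes among the 39 ran from 1 to 9 without single samples.

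The replicate numbers did not pair the samples: the correlations of deviations between same-numbered samples were -0.20, -0.26 and -0.14. With the replicate block edgeR called 3 genes and 0 of the 39, the lower genes at an unadjusted p under 0.05 fell from 5 to 1 of the 39 and from 26 to 14 of the 113 other genes, and Cdkn2a turned to -0.50.

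Some genes changed sign, among them Cdkn2a, which has the largest log2 fold change of the 39. Cdkn2a was -0.51 and Cdk2 0.0027 with limma-voom. With thinned libraries Cdkn2c was -0.31, Cdkn2d -0.0040 and E2f2 0.028. Where leaving out 1 sample turned the sign in edgeR, the range of the log2 fold change was Cdt1 -0.0048 to 0.10, Ccnd3 -0.057 to 0.0041, Ccne1 -0.12 to 0.074, Cdk2 -0.058 to 0.040, Cdk4 -0.040 to 0.069, Cdkn1a -0.20 to 0.35, Cdkn2a -1.61 to 0.87, Cdkn2c -0.20 to 0.23, Cdkn2d -0.058 to 0.10, Rbl2 -0.055 to 0.11, E2f2 -0.11 to 0.047, Mki67 -0.090 to 0.023 and Aurka -0.14 to 0.0043. In DESeq2 the turned values were Cdt1 -0.00045, Ccnd3 0.0096, Ccne1 0.083 and 0.021, Cdk2 0.044, Cdk4 -0.030 and -0.015, Cdkn1a -0.20, Cdkn2a -1.59, Cdkn2c -0.19, Cdkn2d -0.056, Rbl2 -0.045 and -0.021, E2f2 0.051 and 0.048, Mki67 0.032, Aurka 0.0050, Aurkb 0.0014. The causes were not tested. Cdkn2a and Cdkn2b had 18 to 296 and 0 to 58 counts per library.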
